A study of Sparus aurata with 5 samples.

Results

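The LB-GUThealth dose series comprised gilthead seabream (Sparus aurata) juveniles fed a diet with 0, 0.5 or 1% of LB-GUThealth. By the paper, a hydrolysed blend of microalgae is the smaller part of this functional ingredient. The rest includes choline, calcium carbonate and betaine, and the doses are those of the whole ingredient. Members of the series were all fish of the diets CT (0%), GH5 (0.5%) and GH10 (1%) in the deposited qPCR tables. They were chosen by diet and not by any measured value. They were 36 of the 60 fish measured, 12 per diet, and 494 of the 823 deposited relative expression values.

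The study fed 5 diets to tanks of juveniles, and the other diets held LB-GREENboost, an ingredient with more of the same microalgae. Feeds shared their main ingredients, and wheat meal made room for the additive. No genotype, strain or age is given by the labels, and all fish came from one commercial source and were fasted before sampling. Transcripts of 14 target genes were quantified individually for each fish in RNA of its anterior intestine by qPCR, with eef1a, the elongation factor that brings aminoacyl-tRNA to the ribosome, as the only reference gene. The measurement was made on whole tissue, in which fewer cells of a type and less RNA per cell cannot be told apart. The panel holds no gene that defines this segment of the gut, so the labelled tissue was not checked against markers.

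The intestinal epithelium closes the space between neighbouring cells with tight junctions. Claudins are the membrane proteins that set which ions and small molecules pass through this space, some of them as barriers and others as channels, and occludin is a further membrane protein of the same junction that takes part in its regulation. Below the epithelium lie the immune cells of the gut, which in teleosts make immunoglobulin M and respond to microbial products. The panel covers both sides of this barrier with 7 claudins, 3 occludins and 4 immune-related genes.

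Relative expression is the ratio that the authors deposited, in which 1 is the mean of the control fish. Differences between diets are given on the log2 scale, where 1 unit is a factor of 2, with 95% intervals from the SD pooled over the 3 diets. Each gene was tested by permutation of fish between diets, and a gene was counted at an unadjusted p under 0.05. The study used the same level in an analysis of variance followed by multiple comparisons. It reported that these comparisons separated none of its treatments for any gene. The design text describes 4 fish per tank, but which fish shared a tank is not known from the files. Single fish served as replicates, and any difference between tanks would make these p-values too small. GH5 and GH10 were set against the same control fish, so their differences from CT are not independent of each other.

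In the ratio to eef1a, cldn4l was lowest at 0.5% with a return at 1%, while cldn15 was highest at 1%. The mean was lowest at 0.5% in 6 of the 14 genes, cldn15 among them. For each gene 1 of the 3 diets must hold the lowest mean, and this count was not tested. Without a reference it was 4 of 14, and cldn15 was not among them. By the cldn4l cycle alone, without a reference, the log2 difference of GH10 from GH5 was 0.10 (permutation p = 0.508). Over the 3 diets, 2 of the 14 genes (14.3%) were under 0.05 in the one-way test, namely cldn4l and cldn15 (permutation test, cldn4l p = 0.0395 and cldn15 p = 0.0266). Both have a Benjamini-Hochberg (BH) value of 0.277 over the 14 genes. GH5 differed from CT in 2 genes (14.3%), cldn4l and oclnl, GH10 from CT in 1 gene (7.14%), oclnb, and GH10 from GH5 in 2 genes (14.3%), cldn4l and cldn15. Of the 42 pairs of diets and genes, 5 were under 0.05 and none after adjustment over all pairs, where the lowest BH value was 0.321. All 14 genes together did not separate the diets beyond the spread between fish. Diet accounted for 7.92% of the variance of the profile in the 27 fish with every gene, 9 per diet (permutational multivariate analysis, p = 0.401).

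**Figure D1:**
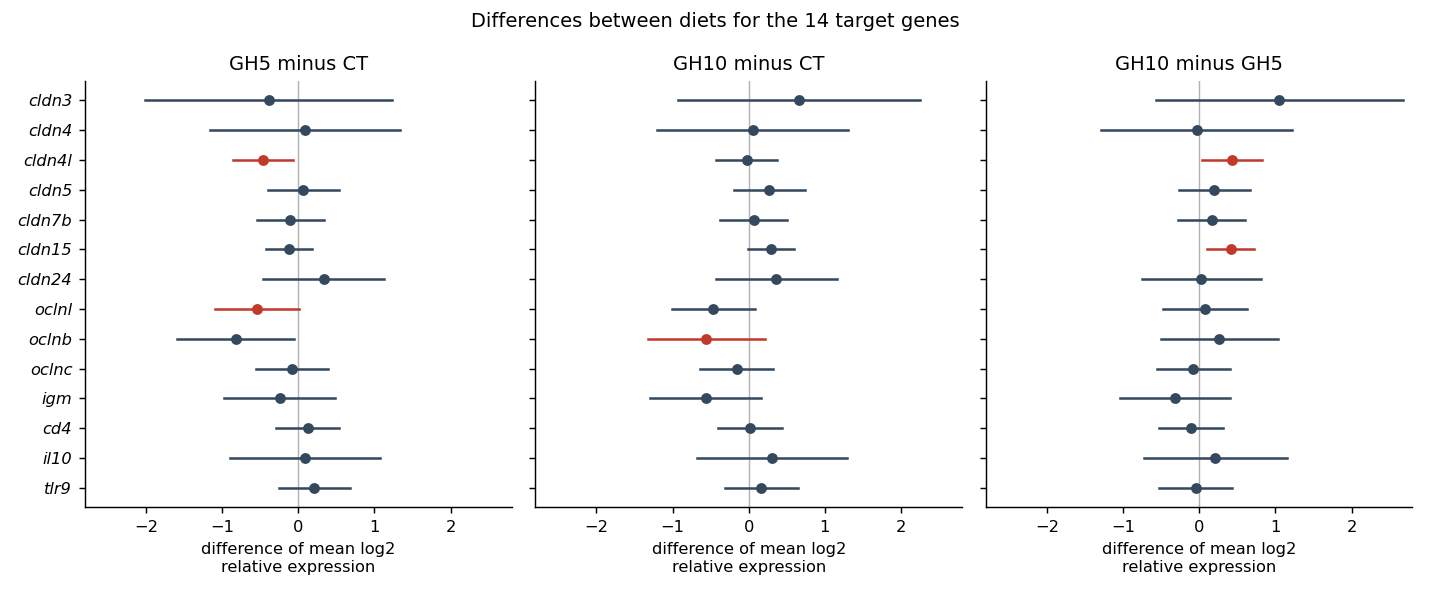
Difference of mean log2 relative expression between diets for each of the 14 genes (points) with its 95% interval (lines), one panel for each pair of diets. Pairs with a permutation p under 0.05 are red, 5 of 42 in all, and most intervals include 0.

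The gene cldn4l (claudin 4-like) is one of the claudins measured. The sequence listed for it belongs to a gene that RefSeq (assembly fSpaAur1.1) names cldnk. Its relative expression was 0.584, 0.896 and 1.81 (lowest, median and highest of 12 fish) in CT. In GH5 it was 0.449, 0.737 and 0.933. In GH10 it was 0.488, 1.01 and 1.99. By this ratio, fish fed GH5 were thus low and close together. Of the 12, 11 were below the control median and 3 below the lowest control fish. In GH10, 4 fish were below the control median and likewise 3 below the lowest control fish. GH10 covered the range of CT and exceeded it at both ends. The groups overlapped in every pair. By the target cycle, cldn4l was instead most variable in GH5, with an SD of 0.373 against 0.279 in CT and 0.329 in GH10.

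The mean of cldn4l was 1.00 ± 0.341 (SD, n = 12) in CT, 0.706 ± 0.149 in GH5 and 1.01 ± 0.416 in GH10. GH5 was 0.725-fold of CT (log2 difference -0.46, 95% interval -0.859 to -0.0687, permutation p = 0.0083, BH 0.116 over the genes and 0.321 over the pairs). GH10 was 1.35-fold higher than GH5 (log2 difference 0.44, interval 0.0404 to 0.83, permutation p = 0.0383, BH 0.268). GH10 did not differ detectably from CT, with a log2 difference of -0.03 and an interval from -0.423 to 0.367 (permutation p = 0.901). The curvature over dose, which is the sum of both end means less 2 times the mean at 0.5%, was 0.90 with an SE of 0.336 (permutation p = 0.0116, BH 0.163), the only gene of 14 (7.14%) under 0.05 in this measure. A linear trend over dose was under 0.05 in none of the 14 genes (0%), and the lowest trend p was 0.0654, for cldn15.

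Leaving out any single fish kept cldn4l under 0.05 in GH5 against CT (permutation p between 0.00232 and 0.0173) and in curvature. GH10 against GH5 lost its call for 9 of the 24 fish that can be left out, namely GH5 fish 4, 10 or 11 and GH10 fish 2, 5, 6, 7, 8 or 11. Over all 24, its log2 difference lay between 0.336 and 0.521, with a permutation p between 0.01 and 0.074.

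**Figure D2:**
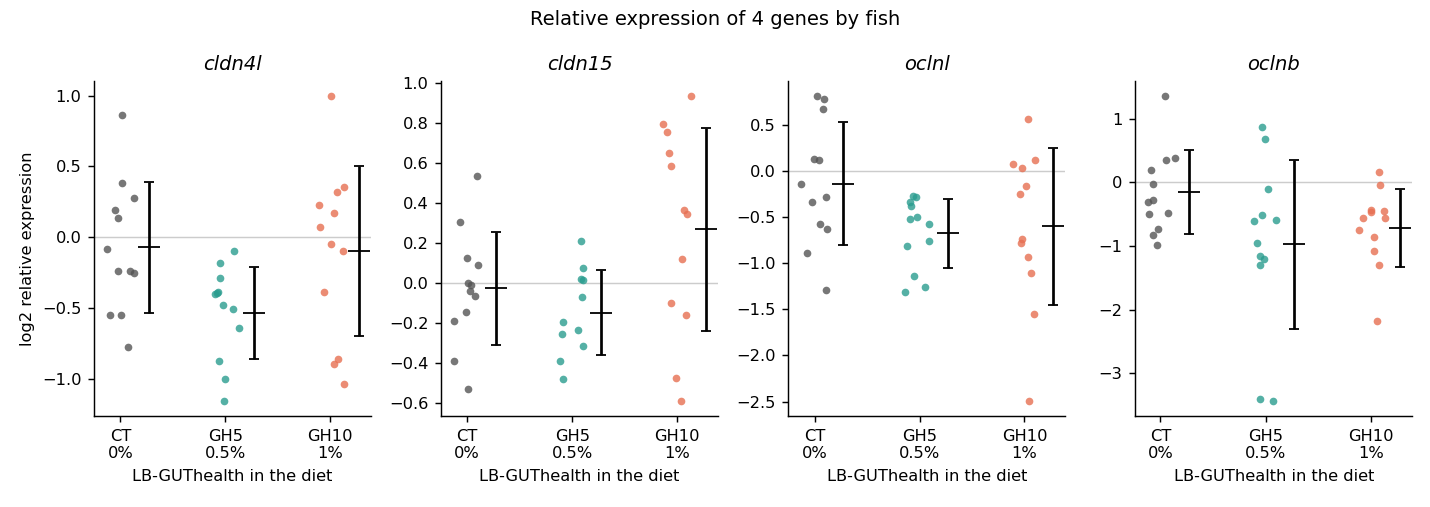
Log2 relative expression of cldn4l, cldn15, oclnl and oclnb in each fish (points) by diet, with the mean and SD in black at the right of each group; the scale differs between panels. For cldn4l and oclnl, 11 and 12 of the 12 GH5 fish lie below the control median, against 4 and 7 of the GH10 fish. Below the lowest control fish lie 3 and 1 GH5 fish and 3 and 2 GH10 fish. The GH10 fish spread widest for cldn4l, cldn15 and oclnl, and the GH5 fish for oclnb.

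The claudin cldn15 forms a channel for sodium and other cations between gut epithelial cells in mammals. Its relative expression was 0.693, 0.983 and 1.45 (lowest, median and highest) in the 12 CT fish. In GH5 it was 0.717, 0.874 and 1.16 in 11 fish, 1 having neither a cycle nor a ratio. In GH10 it was 0.664, 1.28 and 1.91. The 3 ranges overlapped, and 5 of the 12 GH10 fish were above the highest control fish while 1 was below the lowest.

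The means were 1.00 ± 0.202 in CT (SD, n = 12), 0.912 ± 0.136 in GH5 (n = 11) and 1.27 ± 0.416 in GH10 (n = 12). GH10 was 1.33-fold higher than GH5 (log2 difference 0.42, 95% interval 0.108 to 0.724, permutation p = 0.0221, BH 0.268), and this held on leaving out each fish (0.355 to 0.494). GH10 against CT gave a log2 difference of 0.30 that was not called (permutation p = 0.0942), and GH5 against CT gave -0.12 (p = 0.269). The spread of cldn15 also differed between diets, with a log2 SD of 0.285 in CT, 0.214 in GH5 and 0.509 in GH10 (permutation test of the spread, p = 0.0195, BH 0.274). It was the 1 gene of 14 (7.14%) under 0.05 in this test. The call was lost with ranks, where oclnl was called instead, without a reference, with the mean of the target genes as reference and in the fish with every gene.

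The other claudins showed no difference between diets under 0.05. The gene cldn3, a sealing claudin in mammals, was the most variable gene, with an SD within diets of 1.91 on the log2 scale. Its relative expression was 0.0135, 0.542 and 4.36 in CT (lowest, median and highest), 0.0344, 0.374 and 1.73 in the 11 GH5 fish and 0.128, 0.891 and 2.17 in GH10. GH10 was above GH5 by a log2 difference of 1.05, with an interval from -0.571 to 2.68 (permutation p = 0.143), so that the fish do not settle even its direction.

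The sequence listed for cldn4 belongs to a gene that RefSeq names cldnb. Its ratios were 0.160, 0.362 and 7.41 in CT, 0.131, 0.341 and 5.33 in GH5 and 0.114, 0.407 and 3.05 in GH10. The medians were close in the 3 diets, and few fish were high. Below the highest fish, the next was at 1.07 in CT and at 1.61 in GH5. GH10 had 2 high fish (2.98 and 3.05, with the next at 0.911). Its 3 log2 differences lay between -0.03 and 0.09.

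For cldn5, a tightening claudin best known from blood vessels of the brain in mammals, the ranges of the diets overlapped. Its log2 means were in the order of dose, whereas its mean ratio was 1.00 in CT, 0.988 in GH5 and 1.20 in GH10. Ratios were 0.381, 0.854 and 1.93 in CT, 0.645, 0.959 and 1.51 in GH5 and 0.472, 1.09 and 1.96 in GH10. The log2 difference of GH10 from CT was 0.27 (interval -0.196 to 0.733, permutation p = 0.313), within the spread between fish.

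For cldn7b, an epithelial claudin, the medians were 0.916 in CT, 0.848 in GH5 and 0.932 in GH10 and all fish lay between 0.449 and 1.97. The claudin cldn24 had ratios of 0.473, 0.905 and 1.78 in 11 CT fish, 0.559, 0.959 and 5.07 in GH5 and 0.391, 1.19 and 4.81 in GH10. Both doses held fish above the highest control, 2 in GH5 and 4 in GH10, and the mean log2 differences from CT were 0.33 and 0.36 (permutation p = 0.334 and 0.381). The ratio cell of CT fish 6 is empty, and its cycle gives a ratio of 10.3, above every fish of GH5 and GH10. With it included the differences were 0.04 and 0.07 (permutation p = 0.928 and 0.886).

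As a group, 4 of the 7 claudins (cldn3, cldn4l, cldn7b and cldn15) had their lowest mean at 0.5%, against 6 of all 14 genes. Without a reference this count was 2 of 7 claudins and 4 of 14 genes, and with the mean of the target genes 3 of 7 and 5 of 14. With eef1a as reference 6 of the 7 had a higher mean in GH10 than in GH5. This count fell to 3 of 7 both without a reference and with the mean of the target genes as reference. That mean holds the tested genes themselves, all but igm. Rises and falls over the panel therefore tend to balance in that setting by construction. The median log2 difference of GH10 from GH5 was 0.20 over the claudins and 0.12 over all 14 genes. Without a reference these medians were -0.14 and -0.13, and the eef1a cycle itself was 0.338 higher in GH10 than in GH5.

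**Figure D3:**
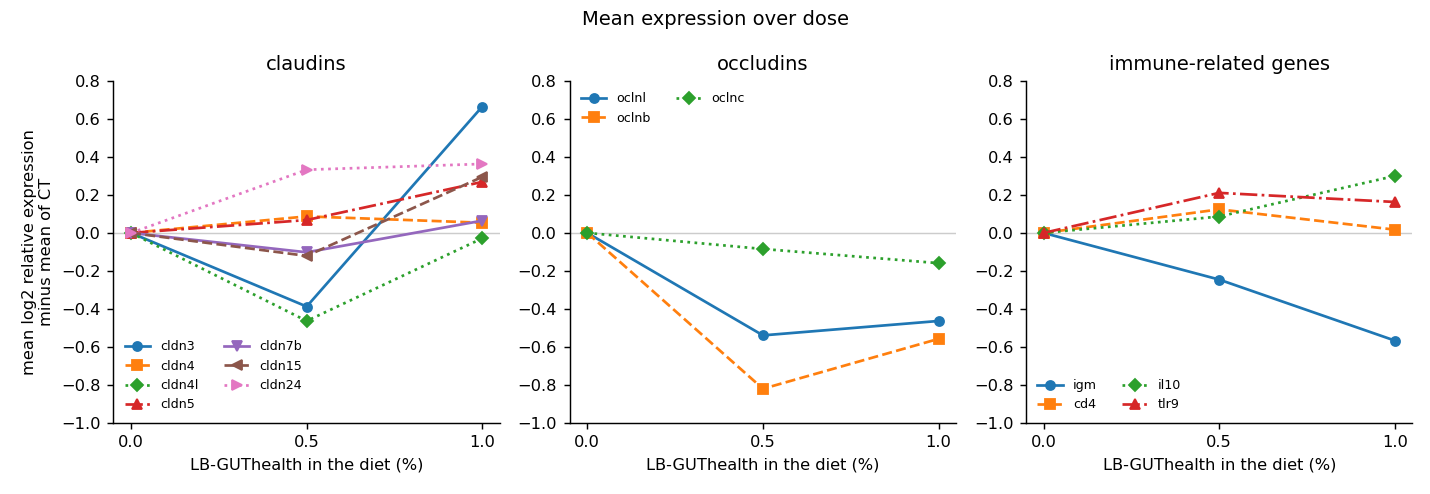
Mean log2 relative expression minus the mean of CT (vertical axis) against the percentage of LB-GUThealth in the diet, by gene family. Points are means of 10 to 12 fish, and the lines mark 4 claudins and 2 occludins with their lowest mean at 0.5%.

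Occludin-like (oclnl), whose listed sequence belongs to a RefSeq gene without a name, had ratios of 0.408, 0.863 and 1.75 (lowest, median and highest) in CT. In GH5 they were 0.404, 0.684 and 0.830. In GH10 they were 0.178, 0.720 and 1.47. All 12 GH5 fish were below the control median, with 1 below the lowest control fish, and the ranges of the diets overlapped. In GH10, 7 fish were below that median and 2 below the lowest control fish.

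GH5 was 0.688-fold of CT for oclnl (log2 difference -0.54, 95% interval -1.09 to 0.0092, permutation p = 0.0238, BH 0.166). The interval rests on the SD pooled over all diets, GH10 included, whereas the permutation test used CT and GH5 alone. Leaving out each fish kept the call (-0.644 to -0.454). In limma's moderated fit across the genes p was 0.052. GH10 against CT was -0.46 (permutation p = 0.15).

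Occludin b (oclnb) had ratios of 0.508, 0.817 and 2.55 in CT. In GH5 they were 0.0926, 0.587 and 1.83. In GH10 they were 0.221, 0.678 and 1.11. Of the supplemented fish, 9 of 12 in GH5 and 10 of 12 in GH10 were below the control median, and 2 GH5 fish (0.0926 and 0.0952) lay far below the next at 0.408.

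GH10 was 0.679-fold of CT for oclnb (log2 difference -0.56, 95% interval -1.33 to 0.211, permutation p = 0.0382, BH 0.524 over the genes). This call was lost on leaving out any of 10 fish of the 24, CT fish 1, 2, 6, 8 or 12 or GH10 fish 1, 3, 6, 8 or 10, with a range of -0.637 to -0.421. GH5 was 0.566-fold of CT (log2 difference -0.82, interval -1.59 to -0.0517) and was not called in the permutation test (p = 0.0675). In both pairs the interval and the test thus differ. The intervals rest on the SD pooled over all diets, whereas each permutation test used its own pair alone. The log2 SD was 1.33 in GH5, against 0.653 in CT and 0.611 in GH10.

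Occludin c (oclnc) had ratios of 0.471, 0.935 and 1.68 in CT, 0.335, 1.00 and 1.14 in GH5 and 0.393, 0.809 and 1.69 in GH10. Its log2 differences from CT were -0.08 and -0.16, inside the spread between fish. All 3 occludins had lower means than CT at both doses, a direction that oclnc left without a reference and with the mean of the target genes (2 of 3 lower), and that oclnl and oclnc left at 1% when the reference list of the claudins was used (1 of 3 lower).

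Recomputing the ratio from the cycles showed that the 3 occludins had been divided by another list of eef1a cycles, which holds the same 60 values as the first, with 1 fish of the 60 having the same cycle in both. Only 3 of its 12 CT cycles, 3 of its 12 GH5 cycles and 1 of its 12 GH10 cycles belong to that diet in the first list. Its mean cycle was lower in GH10 than in CT by 0.326 (permutation p = 0.0518), a difference that enters the occludin ratios. With the first list, oclnb in GH10 against CT was -0.08 (permutation p = 0.812). In this second list the eef1a difference of GH10 from GH5 was -0.09 cycles (permutation p = 0.542). The claudins and the immune-related genes were not recomputed with it. Which of the 2 lists has its cycles in the right order of fish is not settled by the files.

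None of the 4 immune-related genes differed between diets under 0.05 with eef1a as reference. Immunoglobulin M (igm), the heavy chain of the main antibody of teleosts, had ratios of 0.328, 0.823 and 2.08 in CT, 0.241, 0.683 and 1.96 in GH5 and 0.179, 0.672 and 1.24 in GH10. Means were 1.00 ± 0.589 (SD, n = 12) in CT, 0.831 ± 0.488 in GH5 and 0.679 ± 0.359 in GH10, and 8 of 12 fish were below the control median at each dose. The log2 difference of GH10 from CT was -0.57 (interval -1.29 to 0.156, permutation p = 0.138). For 12 of the 36 fish, 4 per diet, the deposited igm cycle is equal to that of cldn15, and the deposited ratio was used for igm.

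Cd4, the co-receptor of helper T cells, had ratios of 0.590, 0.926 and 1.81 in CT, 0.655, 1.07 and 1.64 in GH5 and 0.566, 0.930 and 2.10 in 11 GH10 fish. The 3 ranges nearly coincided, and the difference of GH10 from CT was 0.02 on the log2 scale (interval -0.403 to 0.438).

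Interleukin 10 (il10), an anti-inflammatory cytokine, had ratios of 0.0772, 0.620 and 3.20 in 10 CT fish, 0.237, 0.679 and 2.26 in GH5 and 0.363, 0.721 and 3.55 in GH10. The medians were in the order of dose and differed by far less than the spread between fish, and the difference of GH10 from CT was 0.30 (permutation p = 0.584).

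Toll-like receptor 9 (tlr9), which senses unmethylated DNA of microbes, had ratios of 0.614, 0.859 and 1.62 in 11 CT fish, 0.745, 0.908 and 3.26 in 11 GH5 fish and 0.567, 1.13 and 2.11 in 10 GH10 fish. Its log2 differences from CT were 0.21 at 0.5% and 0.16 at 1%, with the ranges overlapping. For 4 of its cycles in these diets the ratio cell is empty, and with them included the difference of GH10 from CT was 0.32 (permutation p = 0.52).

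The eef1a cycles given here are those of the first list, used for the claudins and the immune-related genes. Their only pair of diets with an unadjusted permutation p under 0.05 was GH10 against GH5. This was also the pair in which cldn4l and cldn15 were called. The eef1a cycle was 18.2, 18.7 and 19.7 (lowest, median and highest of 12 fish) in CT, 18.3, 18.7 and 18.9 in GH5 and 18.0, 19.1 and 19.6 in GH10. A higher cycle means less template, and the GH5 fish lay within 0.6 cycles of each other. Mean cycles were 18.8 ± 0.498 (SD, n = 12), 18.6 ± 0.212 and 18.9 ± 0.480, with p = 0.157 over the 3 diets (permutation test). GH10 was above GH5 by 0.338 cycles (permutation p = 0.0379, 0.114 after BH over the 3 pairs), and GH5 was below CT by 0.182 (p = 0.258).

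On the log2 scale a difference between diets is the sum of that of the target cycle and that of eef1a. For cldn4l in GH5 against CT, the target gave -0.28 and eef1a -0.18 of the -0.46. For cldn4l in GH10 against GH5 the target gave 0.10 and eef1a 0.34 of the 0.44, and for cldn15 the target gave 0.09 and eef1a 0.32 of the 0.42. The higher ratio of these claudins at 1% than at 0.5% thus lay mostly in the reference cycle, while the lower cldn4l at 0.5% lay mostly in the target.

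Without a reference, cldn4l in GH5 against CT was -0.28 (permutation p = 0.0445), cldn4l in GH10 against GH5 was 0.10 (p = 0.508) and cldn15 in GH10 against GH5 was 0.09 (p = 0.489). With the mean of the target genes as reference these were -0.34 (permutation p = 0.0839), 0.13 (p = 0.515) and 0.16 (p = 0.35). Because cldn4l and cldn15 are part of that reference, some of their own difference is taken out by construction. The curvature of cldn4l was 0.38 (permutation p = 0.112) and 0.47 (p = 0.138) in these settings. Whether eef1a itself responded to the diet or the amount of template differed was not tested.

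The immune-related genes cd4 and igm were under 0.05 only in the settings tried without eef1a as reference. Cd4 in GH10 against GH5 was -0.11 with eef1a (permutation p = 0.62), -0.53 without a reference (p = 0.00935, BH 0.131) and -0.48 with the mean of the target genes (p = 0.0192). Igm in GH10 against CT was -0.72 without a reference (permutation p = 0.0415) and -0.75 with the mean of the target genes (p = 0.0377), with BH values of 0.581 and 0.527. Unlike those of cd4, the igm cycles in these settings are not the deposited ones. They were taken back from the deposited ratio and the first eef1a list.

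**Figure D4:**
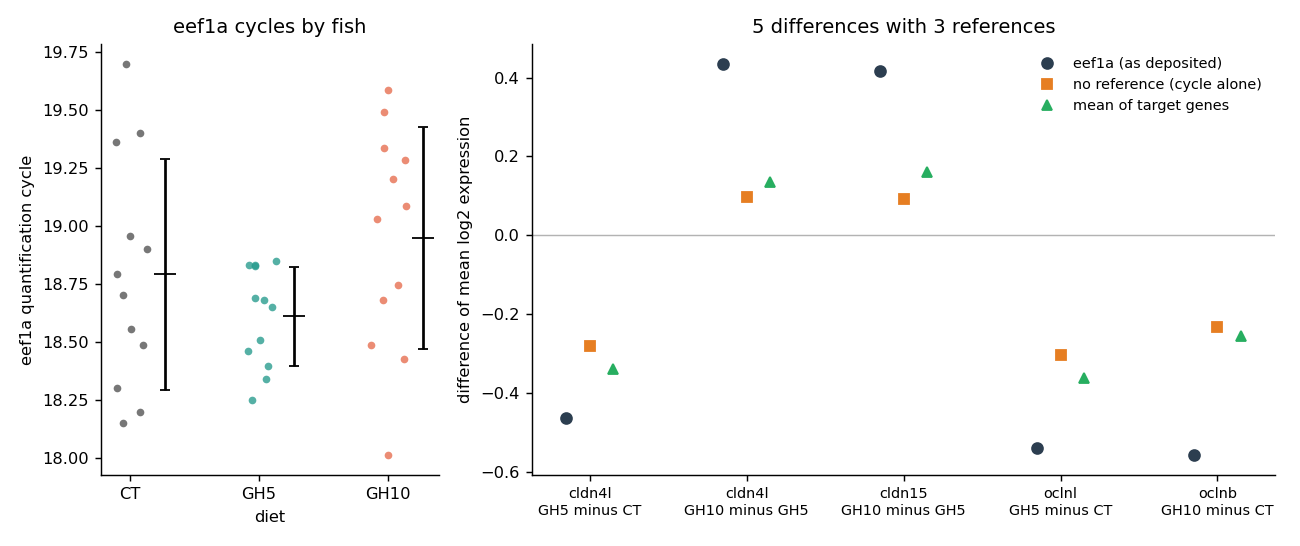
Left, eef1a quantification cycle of each fish by diet in the first list, with mean and SD in black. The deposited ratios of oclnl and oclnb used the second list, which is not drawn. Right, 5 differences between diets on the log2 scale with eef1a as deposited, without a reference and with the mean of the target genes; all 5 keep their sign and are smaller without eef1a.

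Fish fed GH5 resembled each other more than those of the other diets in 9 of the 14 genes, by the log2 SD of the ratio, and in only 2 of 14 by the SD of the target cycle. In the first list the eef1a cycle had its smallest SD in GH5 as well, 0.212 against 0.498 and 0.480 (permutation test of the spread, p = 0.0589). In the second list its SD was 0.424 in CT, 0.356 in GH5 and 0.350 in GH10 (permutation test of the spread, p = 0.816). For oclnb the GH5 fish were instead the most variable, with a log2 SD of 1.33 against 0.653 in CT and 0.611 in GH10.

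**Figure D5:**
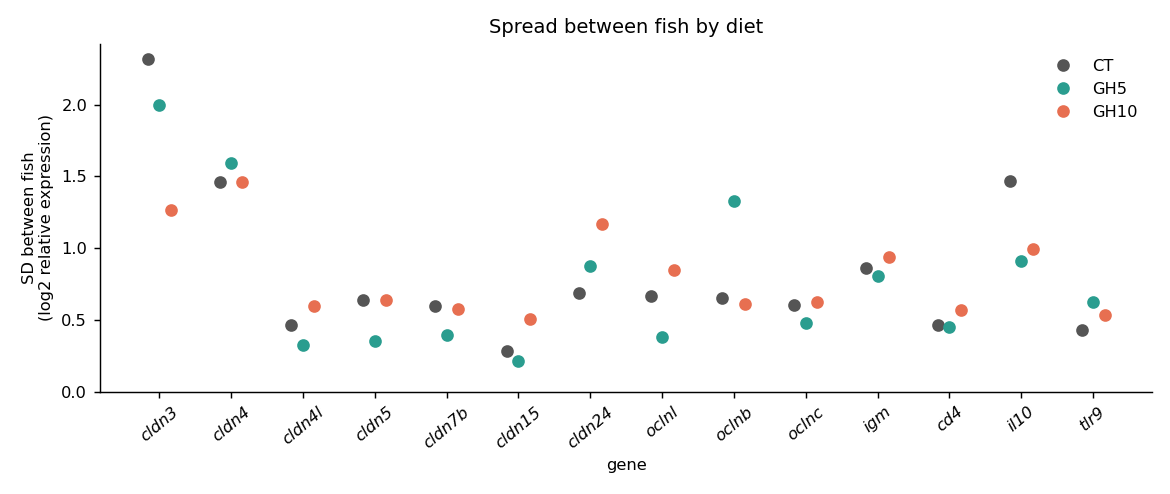
SD between fish of log2 relative expression (vertical axis) for each gene, with one point per diet. GH5 has the smallest SD in 9 of 14 genes. GH10 has the largest in cldn4l, cldn15 (0.509), cldn24, oclnl, oclnc, igm and cd4.

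The step from 0.5 to 1% was also set against the same step in fish fed LB-GREENboost. For cldn4l it was 0.44 with LB-GUThealth and -0.23 with LB-GREENboost, a difference of 0.67 (SE 0.246, 48 fish, permutation p = 0.00939, BH 0.131). It was the 1 gene of 14 (7.14%) under 0.05, and for cldn15 the corresponding steps were 0.42 and -0.05 (permutation p = 0.0669). The call was lost without a reference, where the difference for cldn4l was 0.36 (permutation p = 0.0642), with the mean of the target genes (0.38, p = 0.14) and in the fish with every gene (0.57, p = 0.0625).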

How the data were processed

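Anterior intestines were analysed by real-time qPCR in duplicate wells, and 1 quantification cycle per fish and gene was deposited, with software and threshold not given in the sources used here. The authors computed the deposited relative expression, a ratio, as 2 to the power of minus ΔΔCT against eef1a and the mean of the control fish, and removed outliers by the ROUT method. Deposited cycles are not normalised. From 504 cells of gene and fish in the 3 diets, 494 have a ratio, 6 have a cycle only and 4 have neither. Recomputed ratios matched the deposited ones to 4.5e-08 on the log2 scale, up to a constant per gene and leaving out igm. For the occludins this match used the second eef1a list. The precision of the wells is unknown. The authors' own fold changes, in a further table, were not used here.

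Groups were taken from the diet in the labels. Log2 ratios were compared by two-sided permutation tests with 100000 resamples (fixed seed), for one-way F, pairs, trend, curvature, spread and the step from 0.5 to 1%, at p under 0.05, with BH values over 14 genes and 42 pairs. Tests were tried on simulated independent fish without tanks, so the effect of shared tanks was not covered. Power was tried only for a shift at 0.5% that is larger than any called difference. All 14 genes are described, and full statistics are given for cldn4l, cldn15 and every gene under 0.05. The members and lists were chosen with earlier results of these data known. Alternatives were linear values, ranks, no reference, all cycles, the eef1a list of the claudins throughout, the target genes' mean as reference, only the 27 fish with every gene, outliers beyond 3 interquartile ranges left out, limma's moderated test and each fish left out. The target genes' mean left out igm and held every other gene, the tested one included. For igm, cycles were taken back from the ratio, a choice made after seeing the data. Of 14 listed sequences, 3 matched a RefSeq record. The software was R 4.3.3 with limma 3.58.1, and Python 3.11.15 with pandas 2.3.3, scipy 1.17.1, matplotlib 3.10.9 and numpy 2.4.6.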

Additional observations from a re-analysis of the deposited data

Results flagged for a closer look

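For cldn4l, the step from 0.5 to 1% differed between LB-GUThealth and LB-GREENboost by 0.67 on the log2 scale (permutation p = 0.00939, BH 0.131), which was under 0.05 in a test of the difference itself. The paper also lists an interaction of dose and ingredient under 0.05 for cldn4l. It comes from the same fish, so it is not an independent result. The paper's p over the diets for cldn4l was not under 0.05, and it reports no significant effect of supplementation on any gene. Its text then adds a significant effect of the ingredient for cldn4l and of the dose for oclnb. The p-values it lists for these effects are not under 0.05. The difference of 0.67 lay between 0.570 and 0.755 on leaving out each fish. It was no longer under 0.05 without a reference (0.36, permutation p = 0.0642), with the mean of the target genes as reference (0.38, p = 0.14) and in the fish with every gene (0.57, p = 0.0625).

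Some tlr9 cycles have no deposited ratio, and the ratio recomputed from them is above that of every control fish with a deposited ratio. It was 9.65 in GH5 fish 11, 7.04 in GH10 fish 2 and 8.06 in GH10 fish 12. CT fish 6, likewise without a deposited ratio, gave 12.9. Such values were therefore also found in the control diet.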

How the results depend on the processing

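No pair of diets was under 0.05 after BH adjustment over the 42 pairs in any setting tried. The cause of the changes below was not tested. With ranks, 1 gene was under 0.05 in the one-way test, 1 in GH5 against CT and 0 in GH10 against CT. Without a reference, 1 gene was under 0.05 in the one-way test (cd4), 1 in GH5 against CT (cldn4l), 1 in trend (igm) and 0 in spread. With the mean of the target genes as reference these counts were 0, 0, 1 (igm) and 0, with 1 in GH10 against GH5 (cd4) and 0 in curvature. With the fish that have every gene, the counts were 1 in the one-way test, 1 in GH5 against CT, 1 in GH10 against GH5, 0 in spread and 0 in the step. On the linear scale, 1 gene was under 0.05 in trend (cldn15), 2 in curvature, 2 in spread and 2 in the step. With the claudins' eef1a list for the occludins, 3 genes were under 0.05 in curvature (cldn4l, oclnl and oclnb), 2 in spread and 0 in GH10 against CT. With outliers left out, 2 genes were under 0.05 in spread. Limma gave 0 genes in GH10 against CT, and oclnb in place of oclnl in GH5 against CT. Counts that did not change could hold other genes. Without a reference the genes were igm and cd4 in GH10 against GH5, igm in GH10 against CT, cd4 in curvature and tlr9 in the step. The number of genes with the lowest mean at 0.5% lay between 4 and 7, against 6 with the deposited log2 ratios. Counts of 0 are permutation tests at an unadjusted p under 0.05, except for limma's own. The 5 called differences, picked in these same fish, kept their sign in every setting. With all cycles, with outliers left out and in limma, each difference was unchanged, so these settings add nothing on the sign. For cldn4l and cldn15 the same holds for the claudins' eef1a list. The call of cldn4l in GH10 against GH5 was also lost in the fish with every gene (permutation p = 0.0512). That of oclnl in GH5 against CT was lost with ranks (permutation p = 0.0517), without a reference (p = 0.101), with the mean of the target genes (p = 0.177) and in the fish with every gene (p = 0.0795). That of oclnb in GH10 against CT was lost with ranks (permutation p = 0.0584), without a reference (p = 0.408) and with the mean of the target genes (p = 0.42).

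No paired analysis was possible because the number of a fish only names its row. At 10 to 12 fish per diet the intervals are wide, for cldn3 from -0.571 to 2.68 in GH10 against GH5.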
